A study of Mus musculus with 4 samples.

Results

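The 10 genes described here encode parts of the synaptonemal complex, of the chromosome axis it is built on and of the cohesin that holds meiotic sister chromatids together. They are Sycp1, Sycp2, Sycp3, Syce1, Syce2, Tex12, Hormad1, Hormad2, Rec8 and Smc1b. They were chosen by gene symbol, with earlier results of these data known. All 10 were found among the 22552 symbols in the tables, each on a single row. RNA came from the testes of adult male Fam46c KO mice (2 libraries, replicates 1 and 2) and of adult male WT mice (2 libraries, replicates 1 and 2). Both groups were of a DBA/C57 F1 background, and no treatment is named for either. FAM46C, a poly(A) polymerase of the noncanonical kind, extends the adenosine tails of RNAs, and the stated aim was to find testis genes that it regulates. The labels do not give the KO allele or its promoter, nor whether both libraries of a genotype are from different animals. The p-values therefore cover only the variation among these 4 libraries, and part of it may be technical.

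During meiotic prophase each chromosome of a spermatocyte is folded into loops along a protein axis, and the axes of the paired homologs are zipped together by the synaptonemal complex. The axis is made of cohesin, of SYCP2 and SYCP3 and, before synapsis, of the HORMA-domain proteins HORMAD1 and HORMAD2. SYCP1 forms the transverse filaments, and SYCE1, SYCE2 and TEX12 belong to the central element where the filaments from both sides meet. REC8 is a kleisin, the subunit that closes the cohesin ring, and SMC1B is the meiotic version of the ring subunit SMC1A. In the testis these proteins are known as markers of spermatocytes, and mice lacking one of several of them have male infertility with arrest in prophase.

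The promoters of 4 of these genes are shown because they include the gene with the largest difference between genotypes (Hormad2), its relative (Hormad1), the most variable gene (Tex12) and a gene with nearly the same level in all libraries (Sycp3). Each is the 250 bases before the gene's annotated start, 5′ to 3′ on the gene's strand, from RefSeq on GRCm38.p6. Capitals mark CACGTG, the E-box bound by MAX and its partners, and TCCCGC or its reverse complement GCGGGA, a core of E2F sites. Both motifs are known from work on silencing of germline genes in other cells.
Hormad1, chr3:95559427-95559676, + strand: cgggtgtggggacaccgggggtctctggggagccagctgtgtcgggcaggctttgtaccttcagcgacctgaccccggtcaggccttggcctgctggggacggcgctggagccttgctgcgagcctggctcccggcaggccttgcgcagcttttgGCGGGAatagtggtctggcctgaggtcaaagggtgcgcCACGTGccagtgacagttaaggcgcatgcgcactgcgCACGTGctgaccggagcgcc
Hormad2, chr11:4441083-4441332, − strand: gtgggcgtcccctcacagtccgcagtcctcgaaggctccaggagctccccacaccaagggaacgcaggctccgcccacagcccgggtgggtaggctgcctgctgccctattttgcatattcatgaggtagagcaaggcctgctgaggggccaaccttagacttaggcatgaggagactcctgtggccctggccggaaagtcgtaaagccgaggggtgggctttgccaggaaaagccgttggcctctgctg
Tex12, chr9:50561269-50561518, − strand: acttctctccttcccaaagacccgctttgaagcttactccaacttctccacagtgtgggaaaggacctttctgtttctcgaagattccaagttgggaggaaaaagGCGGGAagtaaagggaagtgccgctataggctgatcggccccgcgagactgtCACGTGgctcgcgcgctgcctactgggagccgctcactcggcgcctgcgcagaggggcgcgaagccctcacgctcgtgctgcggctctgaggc
Sycp3, chr10:88459337-88459586, + strand: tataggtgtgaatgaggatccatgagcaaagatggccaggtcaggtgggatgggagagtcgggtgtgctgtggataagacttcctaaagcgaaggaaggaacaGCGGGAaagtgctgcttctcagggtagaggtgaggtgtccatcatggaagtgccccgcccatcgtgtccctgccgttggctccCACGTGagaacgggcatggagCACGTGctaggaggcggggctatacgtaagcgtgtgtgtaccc
The Hormad1 window holds CACGTG at 2 places and the Sycp3 window at 2 places, the Tex12 window holds it once, and the Hormad2 window holds neither motif. Each marked match stands alone, with no overlap between motifs. Over the windows of 300 bases that run to 50 bases past the start, searched on both strands, CACGTG stood in at least 1 window of 5 of the 10 genes (Sycp1, Sycp3, Syce2, Tex12 and Hormad1), against 8.09% of all 27025 symbols with a window. TCCCGC stood in 7 of the 10 (Sycp1, Sycp3, Syce2, Tex12, Hormad1, Rec8 and Smc1b), against 22% of all symbols. Both motifs contain CG, and the windows of these genes held more CG than 56.5% (Sycp2) to 91.4% (Syce2) of all windows. The part of CG content in these matches was not tested. AACTGCC, a form of the site of the spermatocyte factor MYBL1, stood in the windows of 0 of the 10 genes, against 4.76% of all symbols. Only this exact form was searched, and 10 genes are too few to tell 0 from this share. Syce2 and Hormad1 each have 2 annotated starts in the table, which gives them more chances of a match. These matches describe the letters of the windows, and binding was not measured here.

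None of the 10 genes was called different between Fam46c KO and WT testes. The lowest ratio belonged to Hormad2, whose mean in KO was 80.2% of that in WT. The other 9 genes had KO means between 90.7% (Rec8) and 106% (Syce2) of their WT means, and for each of them the KO and WT libraries overlapped. Together the 10 genes summed to 883 and 844 FPKM in the KO libraries, against 917 and 804 FPKM in the WT libraries. FPKM are fragment counts divided by transcript length and by the library's mapped fragments, which puts different genes on a common scale. Comparisons between genes on it depend on the annotation and strand setting used, which are not given. The test was limma on log2(FPKM + 1) over the 12258 symbols whose mean reached 1 FPKM, two-sided, with Benjamini-Hochberg adjustment. Of the 10 genes 0 had an adjusted p under 0.05 (limma, smallest adjusted p = 0.9999), against 0.114% of all tested symbols. Without adjustment 0 of the 10 had a p under 0.05, against 2.02% of all tested symbols. When WT replicate 2 was left out, Tex12 was the 1 gene of the 10 that did so. The 95% intervals spanned from a KO level at 0.654 of WT, the lower bound for Hormad2, to 1.31 of WT, the upper bound for Syce2, on the scale of FPKM + 1. Differences inside these bounds could not be resolved with 2 libraries per group. In whole testis RNA, fewer cells of a type and less RNA per cell cannot be told apart.

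**Figure D1:**
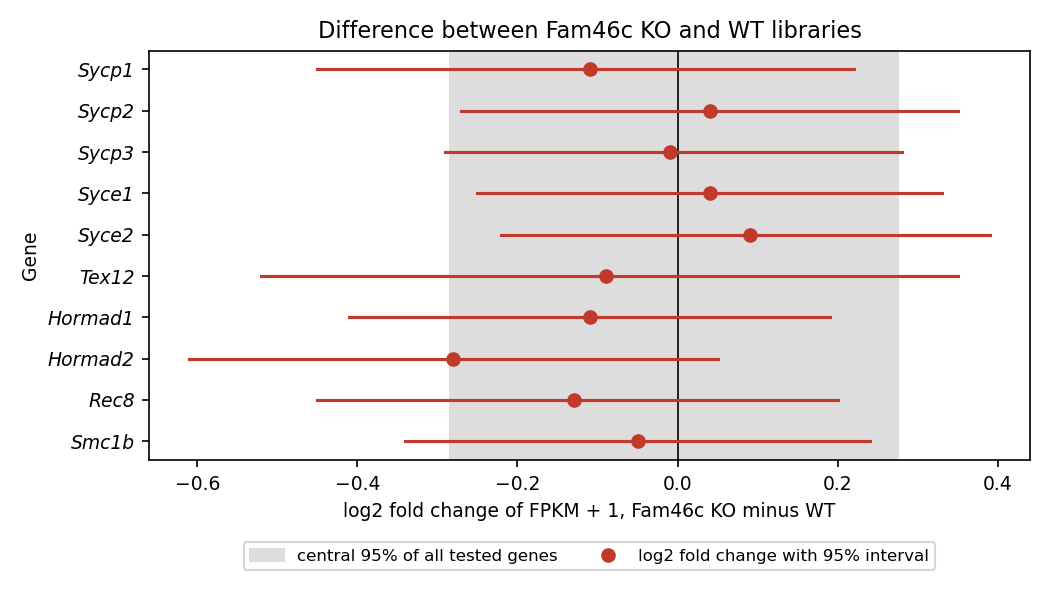
Points are the log2 fold change of FPKM + 1, Fam46c KO minus WT, and bars its 95% interval from limma (2 libraries per group). The grey band holds the central 95% of the 12258 tested genes, from -0.28 to 0.28. All 10 intervals include 0, and Hormad2, at -0.28, lies farthest from it.

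Hormad2, which marks unsynapsed axes and is known for its part in the checkpoint that responds to them, was the lowest of the 10 genes in level. It stood at 7.09 and 6.06 FPKM in the KO libraries, against 8.26 and 8.14 FPKM in the WT libraries. Both KO libraries lay below both WT libraries, the 1 gene of the 10 for which this was so, against 10.6% of all tested symbols. For 0 of the 10 did both KO libraries lie above both WT libraries, against 9.47% of all tested symbols. The Hormad2 log2 fold change was -0.28 (SE 0.15, 95% interval -0.61 to 0.05, limma adjusted p = 1). Of all tested symbols 2.54% had a log2 fold change as low or lower. With any 1 library left out its log2 fold change ran from -0.38 to -0.19. Since both KO libraries lay below both WT libraries, its sign could not change in these fits. Its lowest library, KO replicate 2, held about 230 fragments, a counting error of 6.6%.

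Hormad1, the relative that recruits HORMAD2 to the axis, stood at 32.4 and 31.4 FPKM in the KO libraries, against 37.5 and 31.8 FPKM in the WT libraries. KO replicate 1 lay between the WT libraries and KO replicate 2 just below both. The log2 fold change was -0.11 (95% interval -0.41 to 0.19, limma adjusted p = 1), and without WT replicate 1 it was 0.01. The ratio of Hormad1 to Hormad2 was 4.57 and 5.19 in KO, against 4.54 and 3.9 in WT. The KO ratios were the higher ones, but the nearest values, 4.57 in KO and 4.54 in WT, were almost equal. An exact two-sided permutation test of this ratio gave p = 0.333, the smallest value that 2 against 2 libraries allow.

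The remaining axis genes, Sycp2 and Sycp3, encode proteins that bind each other and form the lateral elements. Sycp3 stood at 178 and 158 FPKM in KO, against 176 and 160 FPKM in WT, so that the groups had nearly the same pair of values. Its log2 fold change was -0.01 (95% interval -0.29 to 0.28, limma adjusted p = 1). In GENCODE M21 exons of Sycp3 share 660 bases with exons of Chpt1 on the opposite strand. Chpt1 was at 68.2 and 60.4 FPKM in KO and at 62.3 and 58.2 FPKM in WT. The strand setting of the counting is not given, so fragments of these shared bases cannot be told apart. Sycp2 stood at 44.5 and 55.5 FPKM in KO, against 49.2 and 47.2 FPKM in WT. Here the KO libraries lay on either side of both WT libraries, and the log2 fold change was 0.04 (95% interval -0.27 to 0.35), or -0.11 without KO replicate 2 and 0.20 without KO replicate 1. Although the proteins are partners, the Sycp3 transcript was the more abundant, by 3.99 and 2.85 times in KO and by 3.59 and 3.39 times in WT.

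Sycp1, the transverse filament gene, stood at 45.2 and 53.4 FPKM in KO, against 60.3 and 47.0 FPKM in WT. The highest value was a WT library, and the other WT library lay between the KO libraries. The Sycp1 log2 fold change was -0.11 (95% interval -0.45 to 0.22, limma adjusted p = 1), and without WT replicate 1 it was 0.06. The tables list a pseudogene of it, Sycp1-ps1, at 1.53 and 1.26 FPKM in KO and at 2.11 and 1.84 FPKM in WT (log2 fold change -0.32, limma adjusted p = 1). How fragments common to the gene and its pseudogene were assigned is not given, and their part in the Sycp1 values was not tested.

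The central element genes held both the highest and some of the lowest levels of the 10. Syce1, whose product binds SYCP1 and SYCE3, was the most abundant, at 269 and 229 FPKM in KO, against 248 and 235 FPKM in WT (log2 fold change 0.04, 95% interval -0.25 to 0.33). The KO libraries were again the outer values. Syce2 stood at 195 and 190 FPKM in KO, against 202 and 163 FPKM in WT, with the WT libraries as the outer values. Its log2 fold change, 0.09 (95% interval -0.22 to 0.39), was the highest of the 10. Tex12 stood at 16.1 and 17.9 FPKM in KO, against 23.3 and 14.0 FPKM in WT. The KO values lay between the WT values, and the spread between the WT libraries, 1.66-fold, was the widest between replicates of any of the 10. Its log2 fold change was -0.09 (95% interval -0.52 to 0.35), -0.43 without WT replicate 2 and 0.26 without WT replicate 1. SYCE2 and TEX12 bind each other and together form the long fibres of the central element. Their transcripts differed 12.1 and 10.6 times in KO and 8.66 and 11.6 times in WT, with Syce2 the higher in each library. The lowest library of Tex12 held about 300 fragments, a counting error of 5.78%. The part of counting in the spread between its WT libraries was not tested.

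**Figure D2:**
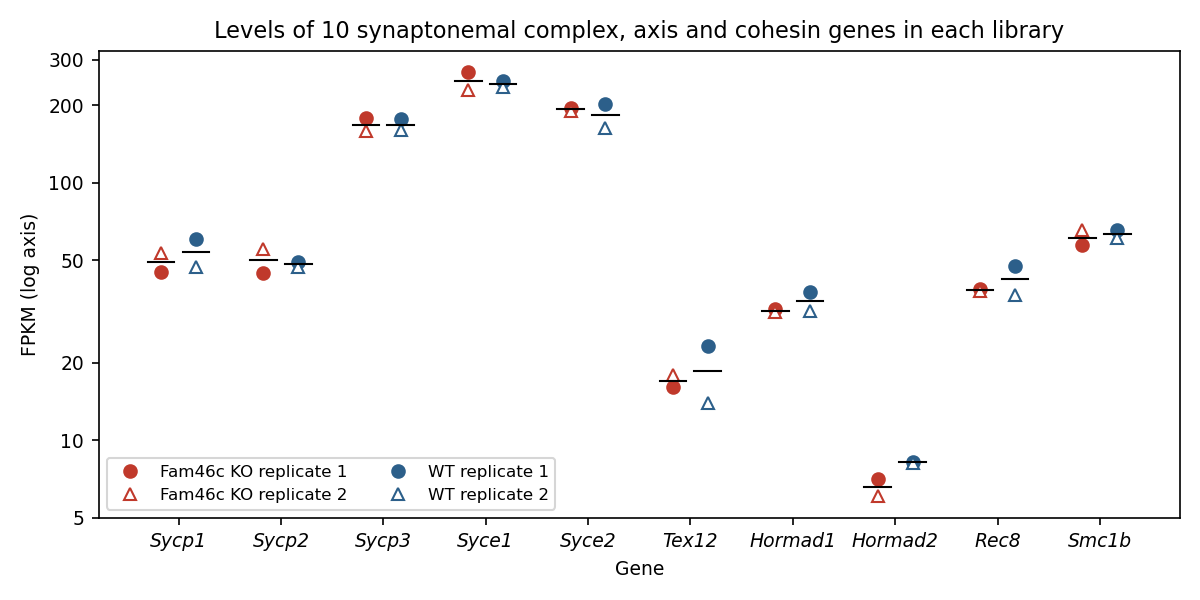
FPKM on a log axis for each gene in each library, with Fam46c KO left of WT and a black line at the mean of each pair. Levels run from 6.06 FPKM for Hormad2 to 269 FPKM for Syce1, and the pairs overlap for every gene except Hormad2.

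Of the cohesin genes, Rec8 stood at 38.5 and 38.0 FPKM in KO, against 47.5 and 36.8 FPKM in WT. The KO values were close to the lower WT value, and the log2 fold change of -0.13 (95% interval -0.45 to 0.20, limma adjusted p = 1) became 0.05 without WT replicate 1. Smc1b stood at 57.1 and 65.4 FPKM in KO, against 65.3 and 61.1 FPKM in WT, with the KO libraries as the outer values by a small margin. The Smc1b log2 fold change was -0.05 (95% interval -0.34 to 0.24, limma adjusted p = 1), and 0.05 without KO replicate 1. The meiotic subunits far outweighed their somatic counterparts in this tissue. Smc1b made up 97.4% and 97.5% of the summed FPKM of Smc1b and Smc1a in KO, against 96.7% and 97.6% in WT. Stag3, the meiotic version of the subunit that contacts the kleisin, made up 89.9% and 88.2% of Stag1, Stag2 and Stag3 in KO, against 87.7% and 89.2% in WT. Among the kleisins the excess was smaller. Rec8 made up 63.8% and 56.1% of Rec8, Rad21 and Rad21l in KO, against 65.7% and 63.3% in WT. KO replicate 2 had the lowest Rec8 share and, at 28.1 FPKM, the highest level of Rad21, the mitotic kleisin, which was at 21.1 FPKM in KO replicate 1 and at 23.5 and 20.5 FPKM in WT. The groups overlapped for all 3 shares, and the exact two-sided permutation p was 1 for Smc1b and 0.667 for Stag3 and Rec8. Rad21l, the other meiotic kleisin, was near the limit for testing at 0.757 and 1.6 FPKM in KO, against 1.31 and 0.858 FPKM in WT. About 21 fragments in its lowest library give a counting error of 21.9%.

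In order of mean level over the 4 libraries, Syce1 (245 FPKM) was followed by Syce2 (187), Sycp3 (168), Smc1b (62.2), Sycp1 (51.5), Sycp2 (49.1), Rec8 (40.2), Hormad1 (33.3), Tex12 (17.8) and Hormad2 (7.39). Ranges did not overlap between Syce1 and Syce2, Sycp3 and Smc1b, Hormad1 and Tex12, or Tex12 and Hormad2. The other 5 neighbouring pairs had overlapping ranges. Sycp1 and Sycp2 could not be ordered, since each was the higher in 2 of 4 libraries. In the other 4 overlapping pairs the gene named first was the higher in all 4 libraries. Syce1, Syce2 and Sycp3 together held 72.7% and 68.3% of the summed FPKM of the 10 genes in KO, against 68.2% and 69.4% in WT. Syce3, a further central element gene, listed under its older symbol 1700007E06Rik, was at the level of Syce1, with 248 and 235 FPKM in KO and 255 and 214 FPKM in WT.

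Replicates differed too. All 10 genes were higher in WT replicate 1 than in WT replicate 2, by a median of 0.19 on the log2 scale of FPKM + 1, against 65.3% of all tested symbols and a median of 0.07. WT replicate 1 therefore set the sign of the comparison for several genes. The median log2 fold change of the 10 genes was -0.07 and 7 were negative, against a median of -0.01 and 52.3% negative over all tested symbols. Without WT replicate 1 the median was 0.06 and 2 were negative, and without WT replicate 2 it was -0.16 and 8 were negative. In WT replicate 1 the summed FPKM of 10 spermatid genes was the lowest of the 4 libraries, at 47400 against 61700 in WT replicate 2, and 68300 and 55100 in the KO libraries. The summed FPKM of 7 Sertoli cell genes was the highest there, at 87.3 against 63.7 in WT replicate 2, and 70.9 and 72.2 in the KO libraries. Genes at high levels weigh most in such sums. Among the spermatid genes, Tnp1 was at 9507 FPKM in WT replicate 1 and 13716 FPKM in WT replicate 2. Odf1 went the other way, at 1514 and 1393 FPKM. All 10 spermatid and all 7 Sertoli genes had a mean of at least 1 FPKM, and 0 of them were at 0 in every library. The part of these shifts in the values of the 10 genes was not tested.

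**Figure D3:**
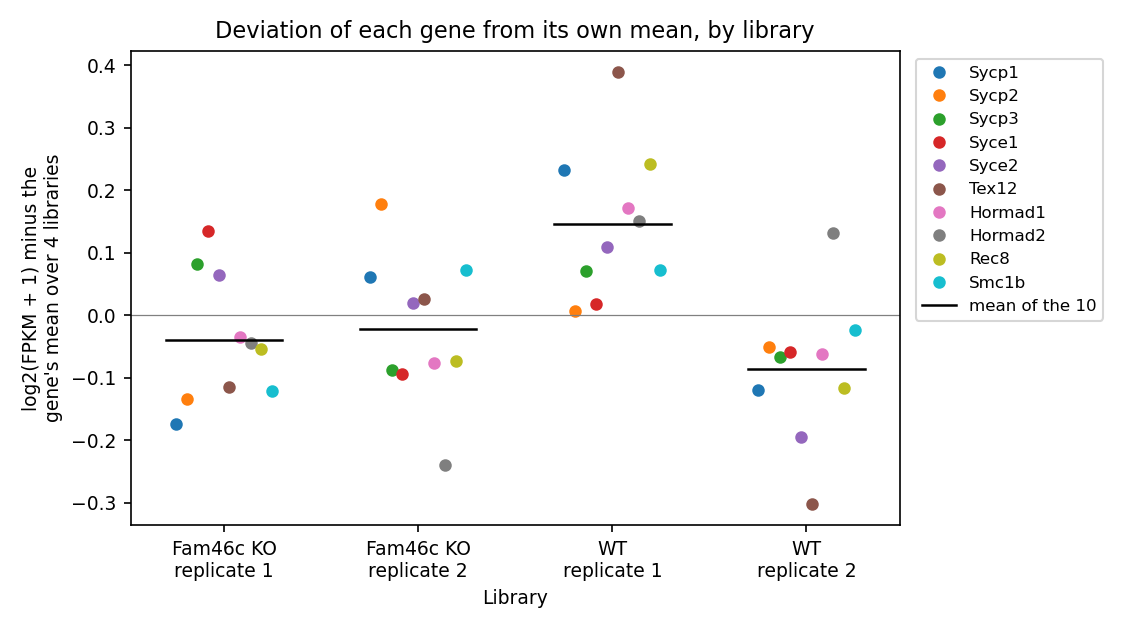
Each point is log2(FPKM + 1) of a gene minus that gene's mean over the 4 libraries, and black lines are the mean of the 10 genes. All 10 genes lie above 0 in WT replicate 1 (mean 0.15), and Hormad2 is the 1 gene above 0 in WT replicate 2 (mean of the 10, -0.09).

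Between the KO libraries the 10 genes divided largely by transcript length. Sycp2, Sycp1 and Smc1b, whose longest coding transcripts in GENCODE M21 have 5717, 3437 and 4047 bases, were lower in KO replicate 1 than in KO replicate 2, with differences of -0.31, -0.24 and -0.19 on the log2 scale. Syce1, Hormad2 and Sycp3, with 1460, 1969 and 1169 bases, were higher in KO replicate 1, by 0.23, 0.20 and 0.17. Syce2, Hormad1 and Rec8, with 1686, 1511 and 2184 bases, were slightly higher there, by at most 0.04. Tex12, with 1003 bases the shortest, did not follow, at -0.14. Over all tested genes with a length, the class medians also fell from short to long transcripts. The median difference between KO replicate 1 and KO replicate 2 was 0.10 for genes with the shortest transcripts, 0.04 for the middle class and -0.06 for the longest, in length classes of 3489, 3486 and 3487 genes. Between the WT libraries these medians were 0.11, 0.07 and 0.06, and for KO minus WT 0.01, -0.01 and -0.02. Sycp1 falls in the middle class and Tex12 in the shortest. Between the KO libraries both were negative, while the medians of their classes were positive. The part of transcript length in the values of the 10 genes was not tested, and the lengths come from an annotation that may differ from the one behind the FPKM.

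**Figure D4:**
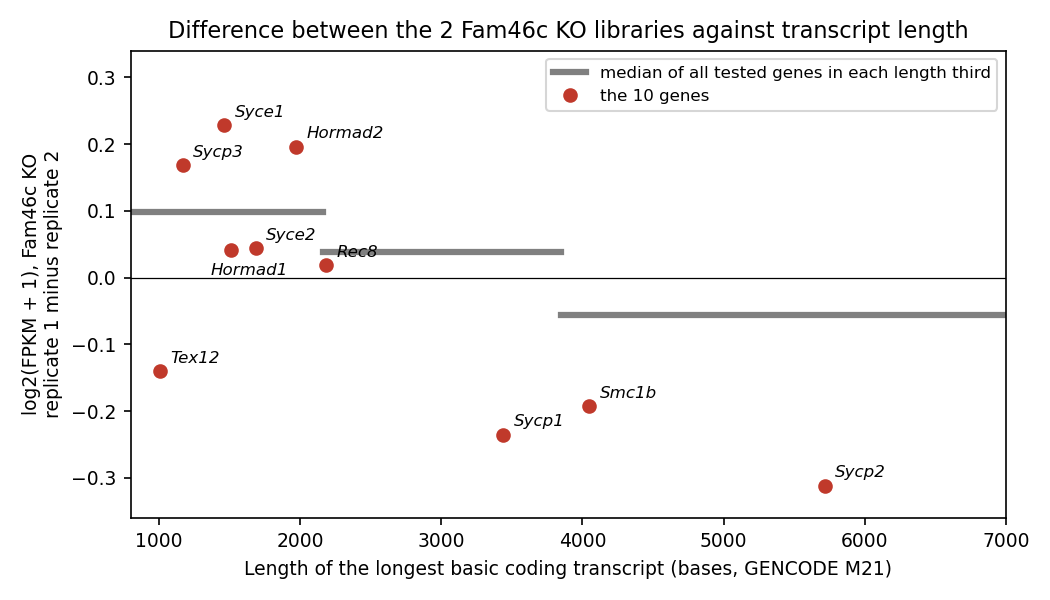
The vertical axis is log2(FPKM + 1) in Fam46c KO replicate 1 minus replicate 2, and the horizontal axis the length of the longest coding transcript in bases. Points are the 10 genes and grey lines the medians of all tested genes in each of these length classes (0.10, 0.04 and -0.06), with the shortest and longest classes cut off at the edges. Long transcripts such as Sycp2 lie below 0 and short ones such as Syce1 above it, with Tex12 as the exception. Sycp1, in the middle class, lies below 0 although the median of that class is above it.

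Tested genes from lists of genes that act beside these 10 in meiotic prophase were not called either. Over all tested symbols limma called 0.114%, and 2.02% had an unadjusted limma p under 0.05. At these shares lists this short would hold few such genes or none, so their counts do not set them apart. Of 18 tested genes of the synaptonemal complex, the axis and the attachment of telomeres to the nuclear envelope, limma called 0 in either direction, and 0 had an unadjusted p under 0.05. Their median log2 fold change was -0.01. The highest was that of Rec114, a partner in break formation listed as 2410076I21Rik, at 3.37 and 2.48 FPKM in KO and 2.49 and 1.39 FPKM in WT (log2 fold change 0.44, 95% interval -0.01 to 0.88, limma adjusted p = 1). Next came Brme1, listed as 4930432K21Rik, at 0.10. The lowest were Hspa2, a heat shock protein associated with the synaptonemal complex, at -0.12, and Ubr2, a ubiquitin ligase, at -0.09.

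Of 18 tested cohesin subunits and regulators 0 were called and 0 had an unadjusted p under 0.05 (limma), with a median of -0.07. The lowest were Nipbl, the cohesin loader, at -0.18, with 36.7 and 41.3 FPKM in KO and 42.6 and 45.7 FPKM in WT, and Smc1a at -0.13. The highest were Rad21 and Cdca5, which protects cohesin on replicated chromatids, at 0.14 each. Stag3 varied least among the cohesin partners named here, with its highest library 1.07 times its lowest, at 112 and 106 FPKM in KO and 114 and 107 FPKM in WT (log2 fold change -0.02, 95% interval -0.29 to 0.25). Smc3, the ring subunit common to both kinds of cohesin, was at 16.7 and 19.7 FPKM in KO and 20.4 and 17.7 FPKM in WT (-0.06). Stag1 and Stag2 were at -0.09 and -0.11.

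The 17 tested recombination genes had a median of 0.00, with 0 calls and 0 unadjusted limma p under 0.05. Meiob, a single-strand DNA binding factor listed as 4930528F23Rik, was lowest, at 8.79 and 7.81 FPKM in KO and 10.2 and 10.8 FPKM in WT (log2 fold change -0.31, 95% interval -0.62 to 0.01, limma adjusted p = 1). Spo11, which makes the meiotic breaks, was at -0.24, and Ccnb1ip1, a ubiquitin ligase of crossover formation, was at 0.12. The 15 spermatocyte regulators and pachytene genes had a median of -0.06, with 0 calls and 0 genes at an unadjusted limma p under 0.05. Among them the phosphatase gene Cdc25c was lowest at -0.30 and Meig1 highest at 0.22. Mybl1, the transcription factor of pachytene spermatocytes, was at 12.1 and 14.8 FPKM in KO and 13.6 and 16.2 FPKM in WT (-0.15), and the PIWI gene Piwil1 was at 0.11. The KO and WT groups did not overlap for 1 of 18, 4 of 18, 3 of 17 and 4 of 15 genes of these lists in the order given, against 20.1% of all tested symbols.

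Over the 4 libraries, the tested genes outside the 10 whose deviations from their own mean lay closest to the mean profile of the 10 were Agfg2, Sox8 and Hdac2, with root mean square distances of 0.0073, 0.0077 and 0.0080 on the log2 scale. The median distance over all other tested genes was 0.12, and within the 10 genes the distances ran from 0.03 for Hormad1 to 0.17 for Tex12. With 4 libraries and 12258 genes, some genes lie close to any profile, so this is a description of these libraries.

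Over the whole table limma called 14 of 12258 genes, 3 higher and 11 lower in KO. Total FPKM ran from 489702 to 528756 per library. Steps between low values put the depth of KO replicates 1 and 2 and WT replicate 1 at 0.781, 0.905 and 0.901 of that of WT replicate 2, which held roughly 21300000 to 23600000 fragments. At that depth the lowest library of the 10 genes other than Tex12 and Hormad2 held from about 910 to about 6400 fragments per gene, a counting error of 1.25% to 3.31%, which covers counting only. Fam46c itself was at 131 and 130 FPKM in KO, against 236 and 134 FPKM in WT (log2 fold change -0.45, 95% interval -0.90 to 0.01, limma adjusted p = 1, and -0.04 without WT replicate 1). The deleted part of the gene is not given, so this level does not check the labels. Among other cell types, 7 Leydig cell genes, of which 1 was called, summed to 635 and 308 FPKM in KO and to 1280 and 1380 FPKM in WT. The called gene, Insl3, held most of each sum, at 379 and 189 FPKM in KO and 1100 and 1136 FPKM in WT. The median log2 fold change of the 6 tested Leydig cell genes was -0.36. The sum over 8 spermatogonial genes was 61.8 and 74.2 FPKM in KO and 69.1 and 59.9 FPKM in WT. Red blood cell genes, of which 1 of 3 tested was called, summed to 11.3 and 6.18 FPKM in KO and to 35.2 and 29.2 FPKM in WT. Sums were 424 and 414 FPKM in KO and 345 and 385 FPKM in WT for 5 macrophage genes, and 33.2 and 31.3 FPKM in KO and 35.3 and 30.0 FPKM in WT for 5 genes of peritubular myoid and endothelial cells, with 0 called in both lists. Aif1 held most of each macrophage sum, at 416 and 403 FPKM in KO and 328 and 375 FPKM in WT. The median log2 fold change of the 3 tested macrophage genes was -0.20, in the other direction. The 6 epididymal genes summed to 6.31 and 3.56 FPKM in KO and to 3.15 and 3.79 FPKM in WT, and Lcn5 and Lcn8 were listed at 0 in all libraries. Defb41, which was picked out after seeing its values, had 2.49 and 1.53 FPKM in KO and 0.873 and 0.392 FPKM in WT (limma adjusted p = 0.370). The part of these cell types in the values of the 10 genes was not tested.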

How the data were processed

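Transcript levels of testes were measured in 2 Fam46c KO and 2 WT libraries. The authors deposited FPKM, 1 table per library with 23021 rows, per the file headers. Per the submitters' processing notes, the mm9 build, Cuffdiff, Cufflinks 2.0.2 and TopHat2 2.0.6 are named, with neither order nor role. No annotation, strand setting or filter is named in the sources used here. FPKM of repeated symbols were summed. Those whose mean reached 1 FPKM were tested as log2(FPKM + 1) with limma 3.58.1 in R 4.3.3, by a linear model per gene with a variance trend (2 residual and 9.48 prior degrees of freedom), two-sided, Benjamini-Hochberg adjusted over all 12258, called under 0.05. A fold change on this scale understates that of low genes. The procedure was tested on simulated data.

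The 10 genes, the related lists and the tests were chosen with earlier results of these data known. Named genes were the 10, fixed partners, Fam46c, the 2 highest and 2 lowest fold changes of each related list, and the 3 closest profiles; 1 gene that this rule names is not reported here. Chpt1 and Sycp1-ps1 were added after the data were seen. The cell type genes named singly (Tnp1, Odf1, Insl3, Aif1, Lcn5, Lcn8 and Defb41) also fall outside the naming rule. List symbols were matched through RefSeq synonyms (GRCm38.p6), with 19 of 20, 20 of 20, 17 of 20 and 15 of 15 matched. Lengths, available for 85.3% of tested genes, came from GENCODE M21, and promoter windows from RefSeq. No coordinates were converted from mm9. Depth was estimated from steps between values under 0.1 FPKM and from lengths of genes with 1 transcript. Each of 15 alternatives changed 1 choice.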

Additional observations from a re-analysis of the deposited data

How the results depend on the processing

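The count of 0 called genes among the 10, and of 0 in each of the 4 related lists, held under all 15 alternatives, and the smallest limma adjusted p of the 10 was never under 0.9998. Of 150 log2 fold changes of the 10 genes under alternatives, 12 changed sign, 11 of them with a library left out. Sycp3 changed to 0.0026 after median scaling. With 1 library left out the log2 fold changes ran from -0.2891 to 0.0634 for Sycp1, -0.1124 to 0.1993 for Sycp2, -0.0899 to 0.079 for Sycp3, -0.073 to 0.1552 for Syce1, -0.0663 to 0.2382 for Syce2, -0.4329 to 0.2574 for Tex12, -0.2261 to 0.0065 for Hormad1, -0.306 to 0.0535 for Rec8 and -0.1448 to 0.0482 for Smc1b. The median of the 10 ran from -0.1612 to 0.0635 with 1 library left out, the highest without WT replicate 1. In these fits the lone library of a group is assumed to vary like the other group.

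The number of genes called over the whole table, 14, was 1 with no filter on low values, 9 with a mean of at least 5 FPKM, 8 with robust variance moderation, 6 after median scaling, 7 after total scaling and 6 after quantile normalization. It ran from 9 (without Fam46c KO replicate 2) to 20 (without Fam46c KO replicate 1) with 1 library left out. With the repeat number as a replicate block it was 68, of which 0 were among the 10 genes. Deviations of the libraries numbered 1 from their group means correlated at -0.03 across genes, which are not independent replicates. With 2 libraries per group this value cannot show whether equal numbers pair the samples. The causes of these changes were not tested.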
